A study of Mus musculus and Rattus norvegicus with 26 samples.

Results

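Receptor-type protein tyrosine phosphatases are the subject here, followed through their introns in 6 lists of Cytoplasmic Intron-sequence Retaining Transcripts (CIRTs), with Ptprr at the centre. A contig is a stretch of intron covered by joined sequencing reads. The members were the 10 genes Ptprd, Ptpre, Ptprf, Ptprg, Ptprj, Ptprk, Ptprm, Ptprr, Ptprs and Ptprt, of 13695 gene symbols found in any list, and a contig belonged to a member when its gene symbol was the same. They were chosen with read counts from these lists in view, so all levels below are descriptions without tests. Together they held 299 of 112345 contigs, in 157 of 85860 listed introns, where an intron found in several lists counts once in each.

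The study sequenced RNA from 26 libraries of dendrites, single neuronal cell bodies and single non-neuronal cells, and asked how widely intron sequence is kept in cytoplasmic RNA. Dendrites (3 libraries) and somas (3 libraries) came from hippocampal neurons of C57BL/6 mice taken on embryonic day 18 and cultured for 14 days. Rat dendrites (2 libraries) and rat somas (3 libraries) came from Sprague-Dawley neurons, also labelled embryonic day 18. Brown adipose tissue (BAT) cells (6 libraries) were picked by shape from interscapular fat of CD-1 mice on embryonic day 17.5. The cardiomyocytes (9 libraries) came from embryonic day 14.5 hearts of transgenic C57BL/6 mice that carried a fluorescent cell cycle probe (mAG-hGem) driven by the CMV promoter, and were sorted for fluorescence and viability. No group carried a drug treatment in the labels. Dendrite libraries pooled many cut processes, whereas a soma, BAT or cardiomyocyte library was 1 cell with its nucleus, so unspliced nuclear RNA and cytoplasmic RNA cannot be told apart in whole cells.

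Each list pooled libraries of its group and gave 1 read count per intron, without saying which of them entered, so there was no replicate error for any value below, and no difference between lists could be tested. The lists held between 1007530 reads in rat dendrites and 17858440 reads in BAT cells. Fewer expressing cells and less RNA per cell cannot be told apart in these pools. The labelled cell types were checked against marker genes. Of 8 brown adipocyte markers 6 were listed in BAT cells, with Pparg at 52450 reads and Ppargc1a and Adrb3 not listed, a share close to the 74.6% of all 13695 symbols listed there. Cidea and Ucp1, 2 of these markers, were also listed in cardiomyocytes, with 2600 and 899 reads against 1548 and 6596 in BAT cells. Of 9 cardiomyocyte markers 7 were listed in cardiomyocytes, where 45.3% of all symbols were, with Nkx2-5 and Gata4 not listed. Of 8 neuronal markers 7 were listed in mouse somas, 6 in mouse dendrites, 4 in rat somas and 2 in rat dendrites, and Map2 was not listed in the somas or dendrites of mice. Of all symbols 43%, 62.8%, 24.8% and 32.7% were listed in these groups. All symbols had to be in some list, of mouse or rat, but the marker sets and further gene lists below did not. The shares of all symbols are thus not a like-for-like measure, and those in rats also count symbols found in mouse lists only.

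Receptor-type tyrosine phosphatases span the cell membrane and remove phosphate from tyrosine residues inside the cell. Ptprd, Ptprf and Ptprs form the LAR family, which shapes axons and synapses. Ptprk, Ptprm and Ptprt carry a MAM domain and act in contact between cells. Ptprg carries a carbonic anhydrase-like outer domain and binds contactins, Ptpre has a short outer domain, and Ptprj has an outer part of fibronectin repeats. Ptprr holds a kinase interaction motif with which it binds MAP kinases and dephosphorylates them.

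Ptprr carried the highest summed read count of any gene in the BAT list and was at much lower levels elsewhere. Its introns held 123179 reads in BAT cells, 912 in mouse dendrites, 316 in mouse somas and 55 in cardiomyocytes. No contig in either rat list had its symbol, and whether the annotation behind the rat lists included the gene was not tested. Levels are given below as RPM, the reads of a gene per 1000000 reads of its list. As a share of all listed reads, Ptprr took 0.69% in BAT cells (95% Wilson interval 0.686 to 0.694), 0.0295% in mouse dendrites (0.0277 to 0.0315), 0.017% in mouse somas (0.0153 to 0.019) and 0.000451% in cardiomyocytes (0.000346 to 0.000587). These intervals cover counting error only, since amplified reads are not independent molecules and the spread between libraries is unknown. The BAT level lay far above those of the other mouse lists.

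**Figure D1:**
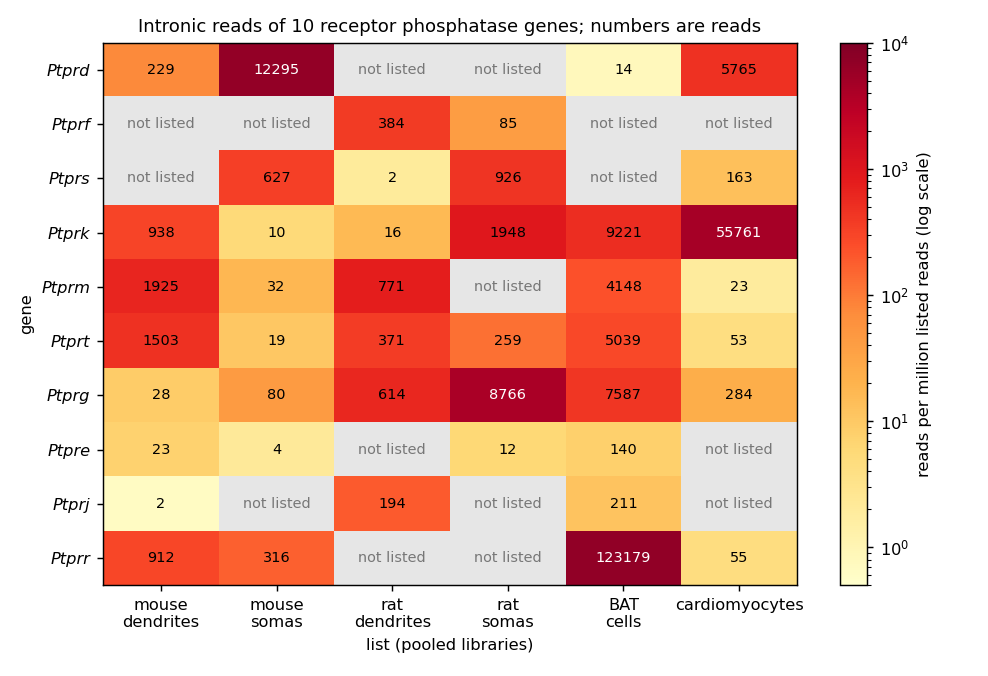
Intronic reads of the 10 genes (rows) in the 6 pooled lists (columns). Colour gives reads per 1000000 listed reads (RPM) on a log scale, the number in each cell gives the reads, and grey marks genes not listed. Ptprr in BAT cells (123179 reads), Ptprk in cardiomyocytes (55761), Ptprd in mouse somas (12295) and Ptprg in rat somas (8766) stand out.

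The stretches of Ptprr that carried these reads sit on the plus strand of chromosome 10, inside a 13-intron gene model at chr10:115455269-115711988 (mouse build NCBIM37, the same assembly as mm9). A few are shown because contigs of different groups met there. The first is the 283 bases of intron 2 common to contigs of mouse dendrites, mouse somas and BAT cells (chr10:115492950-115493232). The second, from intron 13 (chr10:115708717-115709016), holds the end of a BAT contig and of a dendritic contig, and capitals mark a run of adenines. The third is the 3′ end of intron 3 (chr10:115599426-115599510), where the soma contig began, and capitals mark the last bases of the intron.
Ptprr intron 2: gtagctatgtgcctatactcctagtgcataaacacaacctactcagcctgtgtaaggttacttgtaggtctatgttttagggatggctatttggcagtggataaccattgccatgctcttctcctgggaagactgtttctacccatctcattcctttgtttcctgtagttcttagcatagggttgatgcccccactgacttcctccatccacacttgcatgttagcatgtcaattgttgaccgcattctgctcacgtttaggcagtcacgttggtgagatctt
Ptprr intron 13: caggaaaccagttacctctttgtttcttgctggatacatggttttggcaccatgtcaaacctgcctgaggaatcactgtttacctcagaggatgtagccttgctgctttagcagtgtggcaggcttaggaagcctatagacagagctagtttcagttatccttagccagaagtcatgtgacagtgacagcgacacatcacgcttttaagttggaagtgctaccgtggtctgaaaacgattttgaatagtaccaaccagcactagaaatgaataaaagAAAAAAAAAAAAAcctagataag
Ptprr intron 3: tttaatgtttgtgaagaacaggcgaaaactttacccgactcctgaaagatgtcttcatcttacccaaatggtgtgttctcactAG

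Within Ptprr, 2 introns held almost all reads of the BAT list. Intron 13, the last one and 17489 nt long, held 98533 reads, or 80% of the gene's total, and was the intron with the most reads among 30018 in that list. The intron next in order belonged to another gene and held 95060 reads. Intron 2, which is 112065 nt long, held 24615 reads in BAT cells and stood at rank 92. Without intron 13 the gene's remaining 24646 reads would place it at rank 121 of the genes. The other listed introns of Ptprr in BAT cells were intron 10 with 25 reads and introns 5, 9 and 12 with 2 reads each.

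Introns 2 and 3 were listed in each of the other mouse lists. Intron 2 held 677 reads in mouse dendrites, 218 in mouse somas and 12 in cardiomyocytes, and it was among the 3 member introns found in all 4 mouse lists. Dendrites also listed intron 5 with 132 reads, introns 8 and 13 with 42 each, intron 3 with 11 and intron 9 with 8. Somas added intron 3 with 2 reads and a contig of 96 reads that the list assigned to intron 7 of a shorter transcript (NM_001161840), at the place of intron 10 of the longer one (NM_011217). In cardiomyocytes intron 3, with 43 reads, stood above intron 2. Intron 13 was thus the leading intron in BAT cells and was not listed in mouse somas or cardiomyocytes.

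**Figure D2:**
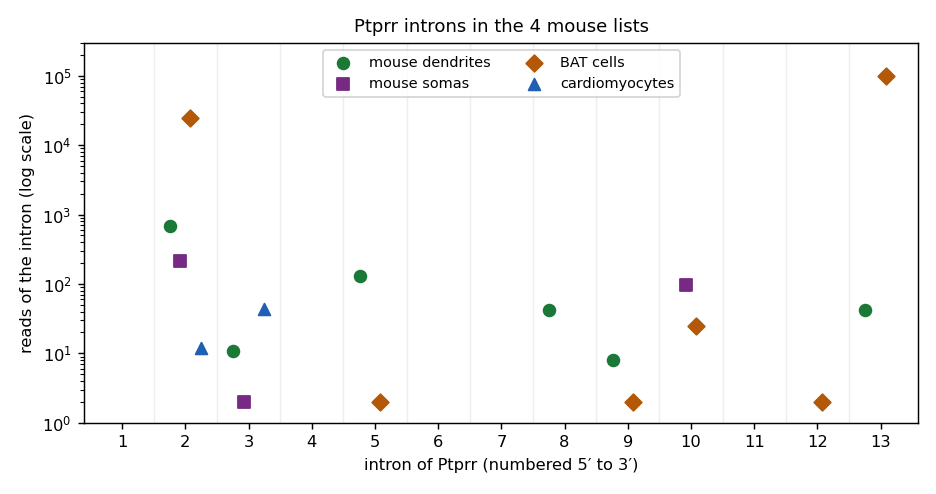
Reads of each listed intron of Ptprr (vertical axis, log scale) against intron number from the 5′ end (horizontal axis) in the 4 mouse lists. Intron 13 holds 98533 reads in BAT cells and 42 in mouse dendrites, and intron 2 is the one with a point for all 4 lists.

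In intron 2 of Ptprr the reads fell on short, separate stretches. In BAT cells intron 2 held 15 contigs, a number reached by 28 of the 30018 introns in the list, yet they covered 4.17% of the intron. In mouse dendrites 7 contigs covered 2.92% of it, in mouse somas 2 contigs covered 0.828%, and in cardiomyocytes 3 contigs covered 0.332%. Contigs of dendrites, somas and BAT cells overlapped from 7500 nt into the intron, in the 283 bases printed above. A further 258 bases at chr10:115562960-115563217 lay in contigs of both somas and BAT cells. None of the 3 cardiomyocyte contigs in intron 2 overlapped those of another list.

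Intron 13 had 2 contigs in BAT cells, 1 of 1036 nt that began 484 nt after the 5′ end of the intron and 1 of 317 nt near its 3′ end. The deposited count belongs to the whole intron, so how the 98533 reads were divided between the pair is unknown. The 317-nt contig (chr10:115708531-115708847) lay wholly inside a dendritic contig of 723 nt (chr10:115708284-115709006). In the sequence of intron 13 printed above, a run of 13 adenines began 147 nt after the end of the BAT contig, and the dendritic contig ended on the last base of that run. The hexamer AATAAA started 8 nt before the run. This is a description of the letters, and whether reverse transcription began at the run was not tested.

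Intron 3 of Ptprr showed the same contig end in mouse dendrites and mouse somas, but not in cardiomyocytes. The dendritic contig of 220 nt and the soma contig of 77 nt both stopped at chr10:115599502, which is 8 nt before the intron's last base. These contigs rest on 11 and 2 reads. The cardiomyocyte contig of intron 3, with 43 reads, ended 810 nt before the intron's last base and overlapped neither of them. Contigs of dendrites and BAT cells also overlapped by 101 nt in intron 9, which is 472 nt long and was covered to 73.7% in dendrites and 32.4% in BAT cells, and contigs of somas and BAT cells by 157 nt in intron 10. One BAT contig of intron 2, of 523 nt, touched an exon that GENCODE annotates in another Ptprr transcript.

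**Figure D3:**
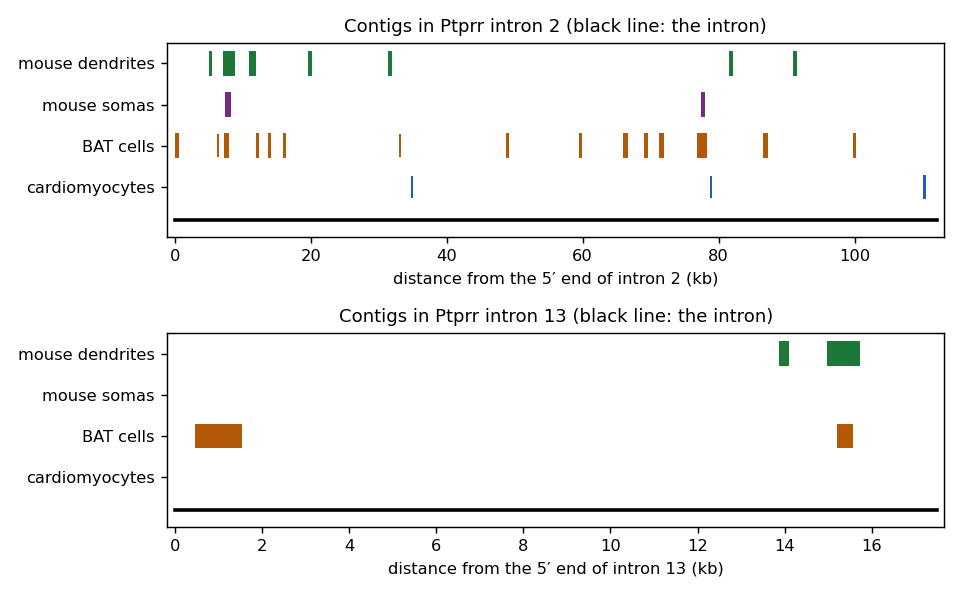
Contigs in introns 2 and 13 of Ptprr, drawn to scale by distance from the 5′ end of the intron in kb, with a thin outline so that short ones remain visible. BAT cells have 15 contigs in intron 2, and from 7500 nt contigs of dendrites, somas and BAT cells line up. In intron 13 the second BAT contig lies within the longer dendritic contig.

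Several genes had a profile over the lists like that of Ptprr. Among 8887 genes listed in BAT cells and in at least 2 lists, the Pearson correlations of log2(RPM + 1) over the 6 lists were highest for Arhgap42 (0.996), Caprin2 (0.995), Spag17 (0.991), Acss3 (0.989) and Gch1 (0.988). None of the 5 was listed in rats, as Ptprr was not, and a gene not listed entered as 0 RPM. Both rat points were thus 0 for Ptprr and the 5 genes, so shared absence is part of these correlations. The libraries behind each point are the same for every gene. The highest value among the other members was 0.607, for Ptpre.

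Markers of other cell types were also present in the BAT list. The 8 neuronal markers summed to 613 RPM there, against 5974 in mouse somas, 234 in mouse dendrites and 369 in cardiomyocytes. In BAT cells 6 of the 8 were listed (75%, against 74.6% of all symbols), led by Syt1 with 8127 reads, while Map2 and Rbfox3 were not listed. The 9 cardiomyocyte markers summed to 2779 RPM in BAT cells, against 26563 RPM in cardiomyocytes. In BAT cells 5 of them were listed (55.6%), led by Nkx2-5 at 26804 reads, which was not listed in cardiomyocytes. Tnnt2, Tnni3, Myh7 and Gata4 were not listed in BAT cells. Markers of astrocytes, leukocytes, endothelium and fibroblasts summed to 45.4, 159, 183 and 23.0 RPM in the BAT list. The part of such RNA in the Ptprr count was not tested.

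Mapk14 and Ptpn5 belong to the same pathway. Mapk14, which encodes the kinase p38 alpha, held 32 reads there, 16 in mouse dendrites, 10 in mouse somas, 20 in cardiomyocytes, 2294 in rat dendrites and 52 in rat somas. Ptpn5, a phosphatase of neurons with the same kinase interaction motif as Ptprr, held 29 reads in mouse somas and was not listed elsewhere. The 123179 reads of Ptprr in BAT cells thus stood beside 32 of Mapk14, in sums that are not divided by length.

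In every list 1 or 2 members held most of the reads, and which ones differed between lists. The members' introns took 0.837% of listed reads in BAT cells (0.833 to 0.842), 0.721% in mouse somas (0.709 to 0.734), 0.573% in rat somas (0.563 to 0.583), 0.509% in cardiomyocytes (0.505 to 0.513), 0.233% in rat dendrites (0.224 to 0.243) and 0.18% in mouse dendrites (0.175 to 0.185). The order of the lists depended on the setting. When the 10 highest introns of every list were left out, BAT cells stood at 0.3% and mouse somas at 0.154%, below rat somas at 0.657%. With contigs of at most 400 nt in whole cells, BAT cells stood at 1.81%, rat somas at 1.41% and mouse somas at 0.13%. Under that limit an intron kept its whole count if any of its contigs was short enough, as intron 13 of Ptprr did in BAT cells. Ptprr held 82.4% of the members' reads in BAT cells, Ptprd 91.9% in mouse somas, Ptprk 89.8% in cardiomyocytes and Ptprg 73.1% in rat somas. Dendrites were more even, with Ptprm at 34.6% in mice and 32.8% in rats. Introns of the members made up 0.137% to 0.246% of all listed introns.

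Genes differ in length, so reads per kb of listed contig were set beside the sums. On that scale Ptprr stood at 16855 reads per kb in BAT cells, rank 50 of 10220 genes. Ptprd stood at 2039 in mouse somas, rank 92 of 5895, and Ptprk at 3793 in cardiomyocytes, rank 423 of 6205. Ptprm led the members in dendrites, with 596 in mice and 647 in rats. In rat somas Ptprk, at 3117 reads per kb in a single contig, stood above Ptprg at 1430. Median genes of the 6 lists lay between 66.7 and 277 reads per kb.

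A further measure was the number of introns with at least 256 reads. In BAT cells 13 of the 41 member introns reached it, against 21.8% of all introns in the list. In cardiomyocytes 11 of 24 did, against 32.5%, and in mouse dendrites 5 of 39, against 12.8%. Mouse somas had 5 of 26 against 13.2%, rat dendrites 4 of 17 against 10.5% and rat somas 3 of 10 against 23.0%. Reads chose the members, so these counts are a description.

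The LAR family was uneven. Ptprd, whose product organises synapses, held 12295 reads in mouse somas, 5765 in cardiomyocytes, 229 in mouse dendrites and 14 in BAT cells, and was not listed in rats. The 400 nt limit left 788 reads in mouse somas and 103 in cardiomyocytes. Its intron 7, only 1634 nt long, held 10792 of the soma reads and ranked 7 among 10568 introns. That intron held 451 reads in cardiomyocytes and 2 in dendrites. In cardiomyocytes introns 12 and 21 led, with 3261 and 1950 reads.

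In introns 7, 8 and 12 of Ptprd, contigs of dendrites, somas and cardiomyocytes overlapped, while in introns 15 and 21 they did not share a place in all groups that listed them. The gene lies on the minus strand of chromosome 4 (model at chr4:75590710-76240203). Common stretches of these 3 groups were 229 nt in intron 7 (chr4:75783864-75784092), 132 nt in intron 8 (chr4:75781970-75782101) and 104 nt in intron 12 (chr4:75753068-75753171). No BAT contig overlapped them. The stretch in intron 8 is the whole cardiomyocyte contig, which rests on 2 reads, while that intron held 290 reads in somas and 197 in dendrites. The first is printed here because it lies in the intron with most of the soma reads, and the second because it is the next intron along the transcript.
Ptprd intron 7: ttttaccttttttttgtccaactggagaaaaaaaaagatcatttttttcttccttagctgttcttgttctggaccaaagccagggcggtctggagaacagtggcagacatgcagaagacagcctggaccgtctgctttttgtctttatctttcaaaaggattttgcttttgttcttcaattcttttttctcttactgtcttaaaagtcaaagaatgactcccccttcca
Ptprd intron 8: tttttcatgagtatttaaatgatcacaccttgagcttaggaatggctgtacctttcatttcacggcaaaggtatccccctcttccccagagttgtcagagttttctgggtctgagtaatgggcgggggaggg

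Ptprs, the LAR member that binds proteoglycans, was listed by a single intron in each list that held it. Intron 10, the one of 33 introns listed in mice, held 627 reads in somas and 163 in cardiomyocytes. Rat somas listed intron 2 with 926 reads and rat dendrites intron 24 with 2 reads, both on sequence without a chromosome in the rat build. On the gene's strand, the soma contig of 1662 nt and the cardiomyocyte contig of 356 nt both ended inside a run of 48 adenines, and held 8 and 23 of them. These 300 bases (chr17:56569714-56570013, minus strand) show the run in capitals.
Ptprs intron 10: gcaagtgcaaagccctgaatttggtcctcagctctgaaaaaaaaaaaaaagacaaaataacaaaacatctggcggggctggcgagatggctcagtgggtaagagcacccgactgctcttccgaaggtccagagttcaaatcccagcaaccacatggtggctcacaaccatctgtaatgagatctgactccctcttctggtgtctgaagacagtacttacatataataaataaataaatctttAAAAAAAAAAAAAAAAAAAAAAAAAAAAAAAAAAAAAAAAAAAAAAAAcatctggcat

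The letters GAGATGGCTCAGTGG in that stretch occur in mouse B2 repeats. Searched on both strands in each contig and 300 nt to each side, they were found at 7 of 257 member contigs (2.72%) and at 5.25% of all 97721 mouse contigs, in both cases as a description. Ptprs intron 10 accounted for 2 of the 7.

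Ptprf was listed in rats and in no mouse list. It had 384 reads in rat dendrites, 376 of them in intron 3, and 85 in rat somas, all in intron 3. The intron 3 contigs of the rat groups overlapped, at chr5:138728961-138729680 in dendrites and chr5:138729338-138729690 in somas (rat build rn4). The rat genome was not used here, so no rat sequence or intron length is given.

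Partners of the LAR receptors were also listed. Of 19 partner genes 10 (52.6%) were listed in BAT cells at 4332 RPM in sum, 9 (47.4%) in mouse dendrites at 2343, 7 (36.8%) in mouse somas at 4437 and 5 (26.3%) in cardiomyocytes at 190, against 74.6%, 62.8%, 43% and 45.3% of all symbols. In rats 6 (31.6%) were listed in somas at 3493 RPM and 5 (26.3%) in dendrites at 616, against 24.8% and 32.7%. Unlike all symbols, the partners did not have to be in any list, so these shares are not directly comparable. Il1rapl1, a synaptic partner of Ptprd, stood at 2259 RPM in BAT cells, 2453 in mouse somas and 1389 in mouse dendrites. Ppfia2, a liprin scaffold, stood at 1928 RPM in BAT cells, 1833 in mouse somas, 530 in mouse dendrites and 384 in rat dendrites. In rat somas it led the partners with 4635 reads. Ptprd itself stood at 0.784 RPM in BAT cells and 6626 in mouse somas.

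Among the MAM-domain members, Ptprk varied most between groups in RPM, from 5.39 in mouse somas to 4570 in cardiomyocytes. Its reads were 55761 in cardiomyocytes, 9221 in BAT cells, 1948 in rat somas, 938 in mouse dendrites, 16 in rat dendrites and 10 in mouse somas. In cardiomyocytes 3 introns led, intron 13 with 18402 reads, intron 10 with 15223 and intron 6 with 10838. Under the 400 nt limit, cardiomyocytes kept 22566 reads and BAT cells 3329, and Ptprk was not listed in rat somas. In BAT cells intron 27 led with 3577 reads, and in mouse dendrites intron 6 with 601. Of its 31 introns 15 were listed in at least 1 mouse list.

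Ptprk also had more common stretches than any other member. Contigs of at least 2 mouse lists overlapped at 14 places in 8 of its introns, of 35 such places in all. The longest was 1171 nt of intron 13 in BAT cells and cardiomyocytes (chr10:28247382-28248552). In intron 18 the contigs of dendrites and cardiomyocytes shared 141 nt. Its intron 6 was listed in all 4 mouse lists, but no stretch of it was common to more than 2.

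Ptprm and Ptprt had their highest levels in dendrites, Ptprm in those of rats with 765 RPM and Ptprt in those of mice with 487. Ptprm held 1925 reads in mouse dendrites, 4148 in BAT cells, 32 in mouse somas and 23 in cardiomyocytes, and 771 in rat dendrites without being listed in rat somas. Under the 400 nt limit, Ptprm kept 107 reads in BAT cells and 8 in mouse somas. Intron 11 held 1665 of the mouse dendrite reads and 3768 of the BAT reads, and was listed in all 4 mouse lists. The contigs overlapped there in dendrites and somas (chr17:67289130-67289309) and in no other pair. Ptprt, at 1127 kb the member with most intron sequence, held 1503 reads in mouse dendrites, 5039 in BAT cells, 19 in mouse somas and 53 in cardiomyocytes. Its intron 7, of 207433 nt, led in dendrites with 623 reads in 12 contigs and in BAT cells with 4411 reads in 15 contigs.

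Ptprg, which binds contactins, was the leading member by reads in rat somas. It held 8766 reads there, 614 in rat dendrites, 7587 in BAT cells, 284 in cardiomyocytes, 80 in mouse somas and 28 in mouse dendrites. The limit of 400 nt left 2 reads in cardiomyocytes and 12 in mouse somas. Intron 2 held 8600 of the rat soma reads in 6 contigs, and intron 12 held 7571 of the BAT reads. Introns 1 and 2 were listed in both rat groups. In mice introns 1 and 2, of 166782 and 231496 nt, were in none of the lists. Whether rat and mouse introns of the same number correspond was not tested.

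Ptpre and Ptprj held at most 211 reads in any list. Ptpre held 140 reads in BAT cells, 23 in mouse dendrites, 12 in rat somas and 4 in mouse somas. Ptprj, a phosphatase of blood and epithelial cells, held 211 reads in BAT cells, 194 in rat dendrites and 2 in mouse dendrites. At the 400 nt limit BAT cells kept 4 reads of Ptpre and 92 of Ptprj. In rat dendrites the reads of Ptprj were rank 972 of 4485 genes by reads, and at 440 reads per kb of contig, rank 555. Both Ptprj transcripts in the BAT list (NM_001135657 and NM_008982) matched the same gene model, and 119 of the reads lay in intron 1 of the former.

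Somas were sequenced as a contrast to dendrites. Of 7 members listed in both mouse groups, 5 differed by more than 4-fold in RPM. Higher in somas were Ptprd, at 6626 against 74.2 (log2 6.48), and Ptprg, at 43.1 against 9.07 (log2 2.25). Higher in dendrites were Ptprk, at 304 against 5.39 (log2 somas over dendrites -5.82), Ptprt, at 487 against 10.2 (log2 -5.57), and Ptprm, at 624 against 17.2 (log2 -5.18). Ptprr, at 295 in dendrites and 170 in somas (log2 -0.79), and Ptpre were within 4-fold. Among all 4739 genes listed in both groups, 24.9% passed 4-fold towards somas and 33.2% towards dendrites, 58.1% in all, so differences of this size were common in these pools. With soma contigs of at most 400 nt Ptprd stood at log2 3.58, and with that limit or scaled by sequenced reads Ptprg fell within 4-fold (log2 0.58 and 1.77). On the latter scale Ptpre passed it (log2 -2.27). Of 5 astrocyte markers, 4 were listed in mouse dendrites and 3 in mouse somas (80% and 60%, against 62.8% and 43% of all symbols), at 966 and 142 RPM in sum. Aldh1l1 alone held 2826 of the 2983 dendritic reads, and Slc1a2, with 254 reads in somas, was not listed in dendrites. Cardiomyocyte markers summed to 519 RPM in mouse dendrites and 10.2 in somas, brown adipocyte markers to 334 and 2.16, leukocyte markers to 342 and 168 and neuronal markers to 234 and 5974. Endothelial markers, at 196 and 729, and fibroblast markers, at 36.6 and 55.0, were higher in somas. The part of such RNA in these differences was not tested.

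In rats 5 members were listed in both groups and 4 passed 4-fold. Higher in somas were Ptprs, at 442 against 1.99 RPM (log2 7.80), Ptprk, at 930 against 15.9 (log2 5.87), and Ptprg, at 4185 against 609 (log2 2.78). Higher in dendrites was Ptprf, at 381 against 40.6 (log2 -3.23), while Ptprt, at 368 against 124, was within 4-fold. Of 2166 genes, 24.6% passed towards somas and 35.7% towards dendrites, 60.3% in all. With soma contigs of at most 400 nt, Ptprf fell within 4-fold (log2 -1.48), Ptprg stood at log2 4.52, and Ptprk, Ptprs and Ptprt were no longer listed in somas. Neuronal markers summed to 349 RPM in rat dendrites and 3830 in rat somas, leukocyte markers to 696 and 59.7, fibroblast markers to 319 and 0.955, brown adipocyte markers to 94.3 and 15.8, cardiomyocyte markers to 77.4 and 59.7 and astrocyte markers to 68.5 and 120. The part of such RNA in the rat differences was not tested. Ptprk lay on the dendritic side in mice and on the soma side in rats, and the rat soma value rests on 1 contig. Ptprg lay on the soma side in both species and Ptprt on the dendritic side, without a test of either.

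All 6 members listed in both BAT cells and cardiomyocytes differed by more than 4-fold. Ptprr was 1530-fold higher in BAT cells, at 6898 against 4.51 RPM, and Ptprm (123-fold), Ptprt (65-fold) and Ptprg (18.3-fold) were higher there too. Ptprd was 603-fold higher in cardiomyocytes and Ptprk 8.85-fold. Of all 5442 genes, 34.3% passed 4-fold towards BAT cells and 28.3% towards cardiomyocytes, 62.6% in all. With contigs of at most 400 nt, the log2 of cardiomyocytes over BAT cells fell within 4-fold for Ptprm (-1.50) and moved from 9.24 to 3.60 for Ptprd and from -4.19 to -11.17 for Ptprg. These groups also differed in strain, age and the fluorescent transgene, which cannot be told apart from the cell type.

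Whole cells of different kinds were also set against mouse somas, a group the following comparisons share with the one on dendrites. BAT cells also differed from somas in strain and age, and cardiomyocytes in age, sorting and the fluorescent transgene. These differences, and the 14 days of culture of the neurons, cannot be told apart from the cell type. Of 7 members in both BAT cells and somas, 5 were over 4-fold higher in BAT cells and Ptprd was higher in somas. Ptprr stood at 6898 RPM in BAT cells and 170 in somas (40.5-fold). For all 5076 genes 26.7% passed towards BAT cells and 33.7% towards somas, 60.4% in all. With contigs of at most 400 nt, Ptprm fell within 4-fold (log2 BAT cells over somas 0.63) and Ptpre passed it towards somas (log2 -3.12). Of 7 members in both cardiomyocytes and somas, Ptprk was over 4-fold higher in cardiomyocytes, at 4570 against 5.39, and Ptprd, Ptprm, Ptprr and Ptprs were higher in somas. For all 3700 genes 26.2% passed towards cardiomyocytes and 37% towards somas, 63.1% in all. With contigs of at most 400 nt, Ptprm fell within 4-fold (log2 cardiomyocytes over somas -0.87), Ptprg passed it (log2 -4.98) and Ptprs was not listed in somas.

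Between 11.6% and 19.3% of the members' introns were listed in a mouse group. With 1 transcript per gene, the mouse lists held 39 of 207 member introns in dendrites (18.8%, Wilson interval 14.1 to 24.7), 25 of 215 in somas (11.6%, 8.0 to 16.6), 40 of 207 in BAT cells (19.3%, 14.5 to 25.2) and 24 of 195 in cardiomyocytes (12.3%, 8.41 to 17.7). All matched transcripts of the same lists stood at 15.8%, 11.9%, 21.8% and 14.7%. Among introns of at least 10000 nt, members stood at 25% in dendrites against 33.5%, at 15.9% in somas against 25.4%, at 29.4% in BAT cells against 35.6% and at 16.4% in cardiomyocytes against 24.9%. In the 10 member introns of at least 100000 nt the order was the other way, at 30% in dendrites against 15.8%, 30% in somas against 17.3% and 30% in BAT cells against 16.1%, but 10% in cardiomyocytes against 17.8%. These comparisons were not tested, and introns of 1 gene are not independent.

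**Figure D4:**
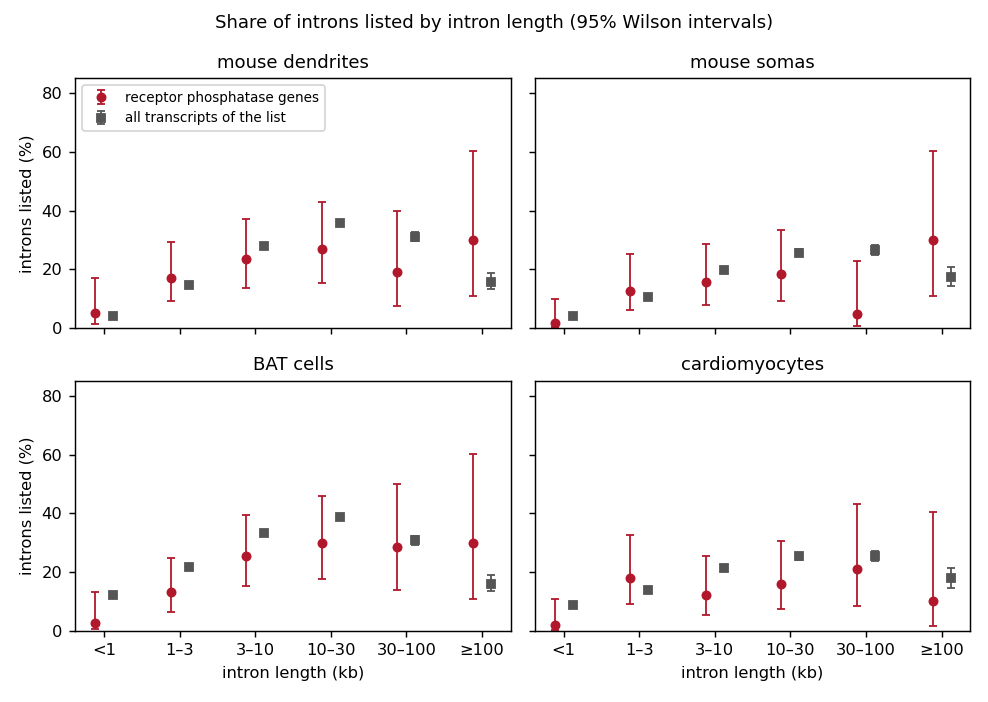
Share of introns listed (%) by intron length in kb for the receptor phosphatase genes (circles) and all transcripts of each mouse list (squares), with 95% Wilson intervals. In introns of 10 to 30 kb the members stand below all transcripts, at 27% against 35.8% in dendrites, and in those of 100 kb or more they stand above them in dendrites, somas and BAT cells (30% against 15.8% in dendrites) and below them in cardiomyocytes (10% against 17.8%). The intervals of the members are wide.

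For Ptprj, an intron numbered 1 under NM_001135657 was listed in BAT cells with 119 reads, but as both of its transcripts matched 1 gene model, whether this is the first intron is uncertain. None of the 8 other members listed in mice had its first intron listed, although 6 of these introns were at least 50 kb long and that of Ptprt was 297773 nt. Among all matched transcripts 26.1% had their first intron listed, and 15.3% of 831 first introns of at least 50 kb. Of 17 other member introns of that length, 6 were listed, 1 of Ptprr, 2 of Ptprk and 3 of Ptprt, against 24.6% of 1557 such introns in all. Ptprr was the only member with its longest intron, intron 2, listed, and 8 of its 13 introns were listed somewhere.

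**Figure D5:**
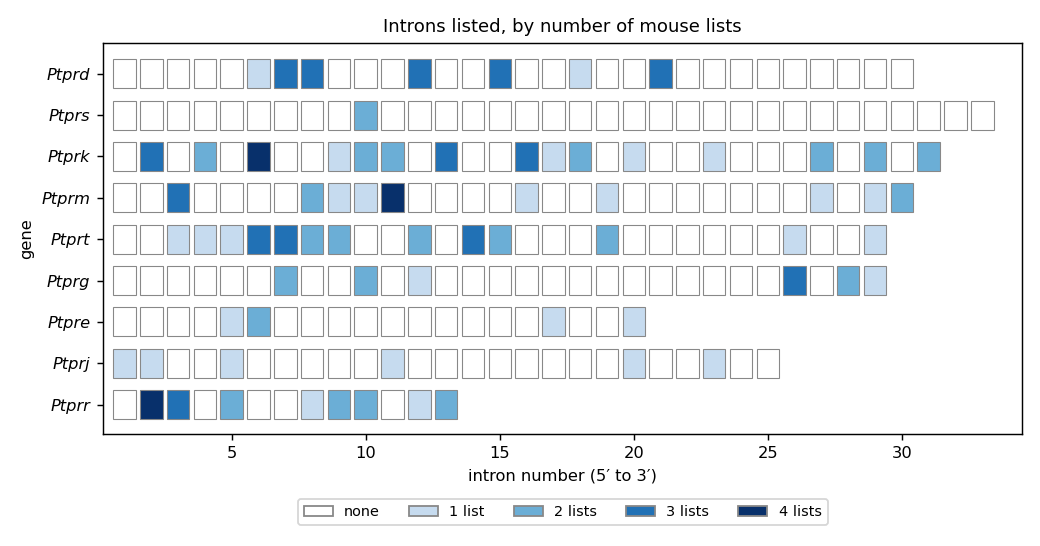
Introns of the 9 members listed in mice, numbered from the 5′ end, shaded by the number of mouse lists that hold them. Intron 6 of Ptprk, intron 11 of Ptprm and intron 2 of Ptprr are in 4 lists, and 1 of the 33 introns of Ptprs is listed.

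Members' introns recurred between lists. Of 70 distinct mouse introns, 30 were in 1 list, 23 in 2, 14 in 3 and 3 in 4, so 42.9% were in a single list, against 60.5% of all listed introns. Those in 3 lists were introns 7, 8, 12, 15 and 21 of Ptprd, 26 of Ptprg, 2, 13 and 16 of Ptprk, 3 of Ptprm, 3 of Ptprr and 6, 7 and 14 of Ptprt. The members are long genes and each had been chosen for its reads, so this count is a description.

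In introns shared between lists, the contigs of members overlapped in 27.3% to 69.2% of cases. Dendrites and somas shared 13 member introns, which is 33.3% of those in dendrites and 50% of those in somas, and contigs overlapped in 9 of them, against 58% of all shared introns. Dendrites and BAT cells shared 20, with overlap in 8 against 44%, and dendrites and cardiomyocytes 15, with overlap in 7 against 44.8%. Somas and BAT cells shared 11, with overlap in 3 against 52.4%, and somas and cardiomyocytes 11, with overlap in 6 against 59.6%. BAT cells and cardiomyocytes shared 13, with overlap in 6 against 65.3%. In all, 35 stretches in 26 introns of 7 members lay in contigs of at least 2 mouse lists, and 4 of them in 3 lists.

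A tract of at least 10 adenines within 300 nt downstream was found at 38 of 257 mouse contigs of members (14.8%, Wilson interval 11.0 to 19.6), against 9.4% of all contigs. By list the shares were 18.3% in dendrites against 8.11%, 20.7% in somas against 18.6%, 7.48% in BAT cells against 7.36% and 23.1% in cardiomyocytes against 9.53%. Upstream, the same tract was at 2.72% of member contigs and 2.6% of all. As the libraries carry no strand, runs of thymines upstream were counted too, at 7.78% of member contigs against 10% of all. Of Ptprr contigs, those with a tract downstream were 4 in dendrites, 1 in somas, 1 in BAT cells and 1 in cardiomyocytes.

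Other receptor-type phosphatases were listed as well. Of 11 genes, 10 were listed in BAT cells (90.9%, against 74.6% of all symbols), 8 in mouse dendrites (72.7% against 62.8%) and 8 in mouse somas (72.7% against 43%). There were 6 in rat somas (54.5% against 24.8%), 5 in rat dendrites (45.5% against 32.7%) and 5 in cardiomyocytes (45.5% against 45.3%). Their sums were 2437 RPM in rat somas, 2015 in mouse somas, 1767 in mouse dendrites, 781 in rat dendrites, 687 in BAT cells and 303 in cardiomyocytes. Ptprb, the endothelial member, led in BAT cells at 462 RPM and in mouse dendrites at 514. The members' own reads in BAT cells without Ptprr made up 0.148% of the list.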

How the data were processed

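Total RNA of the 26 libraries was amplified as antisense RNA from a poly(T) primer and sequenced as 50 bp paired reads without strand. Per the labels and the study's methods, the authors aligned reads with RUM to mm9 or rn4 (builds named in the submitters' processing notes), kept unique intronic reads outside predicted genes, poly(A) sites and Rfam, and joined those within 500 bp into contigs. The deposited values are raw read counts per intron, pooled over libraries of a group and repeated on every contig of the intron. The study limited contigs of whole cells to 400 nt, but the deposited lists hold longer ones, and both versions were computed. The labels list more BAT and cardiomyocyte libraries than the study describes, and which entered the lists is not given in the sources used here.

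Each count was taken once per transcript and intron. Levels were divided by the reads of the list, since library depth is not in the lists. A gene missing from a list is called not listed, because a filter and a lack of reads cannot be told apart. A call was a difference over 4-fold between lists among genes listed in both. No test was possible without replicates, and the pooled lists carry no replicate numbers. Of 13156 mouse transcripts, 12865 (97.8%) matched a GENCODE vM1 model by intron number and position. Sequences were read from NCBIM37. Coordinates are 1-based. Wilson intervals (95%) cover counting error. Scripts ran in Python 3.11.15 with pandas 2.3.3, numpy 2.4.6, scipy 1.17.1, pysam 0.24.0 and matplotlib 3.10.9, and the steps were tested on simulated data. Junction tables were not used here. Members and gene lists were chosen with earlier results of these data known. The named genes were the 10 members, the leading intron of each in each list, all listed introns of Ptprr, introns in at least 3 mouse lists, up to 2 genes of each further list and the 5 genes most like Ptprr. The list of kinase interaction motif phosphatases and MAP kinases is given in part, since 1 item is not reported here.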

Additional observations from a re-analysis of the deposited data

Results flagged for a closer look

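Ptprk moved in opposite directions between dendrites and somas in the 2 species, with log2 somas over dendrites of -5.82 in mice and 5.87 in rats. Each direction is that of a pooled list, so no sample can be followed on its own, and the difference between the species was not tested. The mouse soma value rests on 10 reads and the rat dendrite value on 16, in a single contig.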

How the results depend on the processing

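No paired analysis was possible because the lists pool libraries of a group and carry no replicate numbers, and for the same reason no library could be left out. The number of member introns listed was 157 and fell to 83 with at least 32 reads per intron, and 126 remained with contigs of at most 400 nt in whole cells. Adding the count over contigs raised member reads from 244934 to 1023010. Without the 10 introns with the most reads, the members' share of listed reads was 0.189% in mouse dendrites, 0.154% in mouse somas, 0.281% in rat dendrites, 0.657% in rat somas, 0.300% in BAT cells and 0.552% in cardiomyocytes. With contigs of at most 400 nt, where an intron with any such contig kept its whole count, it was 0.13% in mouse somas, 1.41% in rat somas, 1.81% in BAT cells and 0.492% in cardiomyocytes. The share of member introns listed was 25% in mouse dendrites and 29.4% in BAT cells for introns of at least 10000 nt, and 9.18%, 3.72% and 10.1% in mouse dendrites, mouse somas and BAT cells with at least 32 reads, against 7.26%, 5.27% and 10.6% of all introns. An A tract was downstream of 21% of member contigs with 8 adenines, and inside or downstream of 23.3%, a setting chosen after seeing the data. For all contigs the share was 9.4% with 10 adenines downstream and was not computed at these settings, so they have no comparison. The cause of these shifts was not tested beyond the construction of each setting.

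Members past 4-fold numbered 26 over the 5 comparisons, in which 7, 5, 6, 7 and 7 members were in both lists. There were 30 past 2-fold, 24 past 8-fold and 20 past 4-fold with contigs of at most 400 nt. Of all genes, 58.1% to 63.1% passed 4-fold in these comparisons, and their shares at the other settings were not computed. Scaled by sequenced reads, 9 members passed 4-fold between dendrites and somas, as before, but in mice Ptprg left and Ptpre entered. No difference past 4-fold in the reported setting changed direction. Ptpre in BAT cells over mouse somas, within 4-fold there at log2 1.86, passed it the other way with the 400 nt limit, at log2 -3.12. With the 400 nt limit, Ptprk, Ptprs and Ptprt were no longer listed in rat somas nor Ptprs in mouse somas, so the direction of Ptprk in rats could not be computed, and the reads of Ptprd in mouse somas were 788.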
